A study of Mus musculus with 3 samples.

Results

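The cells described here are blood-lineage cells of the mouse intervertebral disc preparation that carried monocyte transcripts. They were chosen by their own counts: at least 3 of the 5 transcripts Csf1r, Ccr2, F13a1, Ms4a6c and Ly6c2 detected, at most 1 of the 3 complement C1q transcripts, S100a8 plus S100a9 under 2% of the cell's UMIs (unique molecular identifiers, 1 per captured transcript), and no UMI of Siglech. They number 2375 of the 26882 barcodes kept with at least 500 genes and at most 15% mitochondrial UMIs. Discs were taken at postnatal day 30 from untreated mice of genotype shh-cre:R26R-tdTomato, in which Cre under Shh control switches on the red reporter tdTomato from the Rosa26 locus, and reporter-positive cells were sorted before 10x Genomics 3' v3 profiling. The 3 libraries are replicates of this 1 group, and each is a batch of its own, made from pooled litter-matched animals, so no mutant or treated animal is compared and every contrast is between cells of the same libraries. Shh is a notochord gene, and each disc was freed by cutting the bony endplates of the vertebrae, whose bodies hold marrow. Whether the cells described here carried the reporter was not analysed.

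Monocytes are made in bone marrow from granulocyte-monocyte progenitors, which load azurophil granules with myeloperoxidase and neutral serine proteases. Classical monocytes, with high Ly6c and the chemokine receptor Ccr2, leave for blood and tissues, where they can become macrophages or antigen-presenting cells, or turn into Ly6c-low cells that patrol the vessel wall. Csf1r is the receptor for the growth factor M-CSF, F13a1 encodes the A subunit of coagulation factor XIII, Ms4a6c is a tetraspan membrane protein and Ly6c2 a GPI-anchored surface antigen.

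The members numbered 246, 1253 and 876 in libraries 1, 2 and 3, which was 4.29% (95% exact binomial interval 3.78 to 4.85%), 11.6% (11.02 to 12.2%) and 8.45% (7.92 to 9.004%) of the kept barcodes, or 8.12 ± 3.67% (SD, n = 3 libraries). The intervals do not overlap, and they cover counting error only. Set against neutrophils of the same library, there were 14.2, 46.7 and 31.9 members per 100 neutrophils, so library 1 was again the lowest. Their median depth was 16902, 11767 and 14981 UMIs per cell, above the medians of 6592, 8631 and 8680 UMIs over all kept barcodes. Libraries 2 and 3 shared 224 barcode sequences, of which 33 were kept in both and 1 was a member in both; libraries 1 and 2 shared 24 and libraries 1 and 3 shared 29, none of them members in both. A doublet caller marked 13, 81 and 72 members, and they were left in unless said otherwise.

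The threshold on markers lies inside a continuous range of cells. With every other limit met, cells with 5 markers numbered 106, 734 and 469 in libraries 1 to 3, those with 4 numbered 78, 361 and 255, and those with 3, just inside, numbered 62, 158 and 152. Just outside, 141, 275 and 247 cells had 2 markers. On the C1q limit, 3, 103 and 48 members had 1 C1q transcript, and just outside 1, 25 and 9 cells had 2. On the S100 limit, 5, 26 and 12 members had 1.5 to 2%, while 6, 10 and 18 cells outside had 2 to 2.5%.

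The label was set against transcripts that the rule did not use, at a depth of 2000 UMIs drawn from each cell, which kept 237, 1244 and 868 members. B lineage cells of the same libraries, with medians of 2945, 3953 and 2954 UMIs, served for comparison, and their shares are a guide to the level of free RNA. They were not limited on S100 genes as the members were, and transcripts of their own were not told apart from free RNA. Ctss, the lysosomal protease cathepsin S, had a UMI in 34.2, 62.6 and 53.8% of members in libraries 1 to 3, against 11.9, 19.1 and 19.8% of B lineage cells. Fcgr1, the high-affinity IgG receptor, was found in 8.02, 13.3 and 11.98% of members, against 0, 0.0397 and 0.0364% of B lineage cells. Cx3cr1, the fractalkine receptor, was found in 10.97, 17.8 and 12.6% of members, against 0.131, 0.0794 and 0.109% of B lineage cells. All 3 myeloid transcripts were higher in members than in B lineage cells in every library. Camp, a secondary granule peptide of neutrophils, gave no such contrast, with 30.4, 19.1 and 19.5% of members against 49.5, 31.9 and 31.4% of B lineage cells. Whether Camp in members was free RNA was not tested. The S100 limit was set on members and not on B lineage cells, and its part in this difference was not tested either.

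Marker lists of other cells were summed next. The 11 neutrophil markers, which include both S100 genes limited by the rule, summed to 2322 to 2341 CPM (UMIs per 1000000 UMIs of the summed cells) in members, against 28738 to 39300 in B lineage cells and 368252 to 406741 in neutrophils. The 10 C1q macrophage markers, which include the genes limited by the rule, summed to 26.8 to 36.8 CPM in members and to 9748 to 17662 in C1q macrophages. The 4 nucleus pulposus markers summed to 8.39 to 69.5 CPM in members, and the 4 erythroid markers to 105 to 5153 in members, against 837 to 10804 in B lineage cells. Among the lists of other cells, that for promyelocytes and granulocyte-monocyte progenitors stood out. Its 7 transcripts summed to 13600 to 20954 CPM in members, against 5628 to 9993 in neutrophils and 1314 to 1434 in B lineage cells. The label monocytes is thus not met by all of these cells, since a large share carried transcripts of granule-forming progenitors. The 20 monocyte markers were summed as well, and gave 8743, 19843 and 14906.5 CPM in members, in library order. Neutrophils gave 16996.9, 19982.9 and 18215, so this list was not higher in members than in neutrophils in any library. C1q macrophages gave 11769, 13283.6 and 10134.1, and the direction against members differed between libraries. B lineage cells gave 2543.55, 2895.06 and 2341.51, lower than members in each library. Below, monocytes means the cells that met the rule.

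The 4 granule transcripts that lead that list are Mpo, myeloperoxidase, and the serine proteases Elane (neutrophil elastase), Prtn3 (proteinase 3) and Ctsg (cathepsin G). They stood among the most abundant transcripts of the members. Prtn3 reached 6063, 4723 and 6521 CPM in libraries 1, 2 and 3, Elane 4515, 2946 and 5333, Mpo 4874, 2692 and 4868 and Ctsg 3525, 2675 and 3391. Lyz2, the macrophage lysozyme, stood at 4228, 12958 and 9435. Library 1 was the lowest of the 3 for Lyz2, and library 2 the lowest for all 4 granule transcripts.

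At 2000 UMIs per cell, Prtn3 had a UMI in 70.9, 47.7 and 60.8% of members, against 20.4, 8.22 and 11.3% of B lineage cells. All 4 granule transcripts were found together in 102, 280 and 297 members of libraries 1, 2 and 3, which is 43.0%, 22.5% and 34.2%. None of the 4 was found in 47, 571 and 276 members, which is 19.8%, 45.9% and 31.8%. Just 1 was found in 42, 227 and 179 members, and 2 or 3 in 46, 166 and 116. At least 2 of the 4 were found in 62.4%, 35.9% and 47.6% of members, against 13.9%, 2.98% and 5.28% of B lineage cells. Members with all 4 were also deeper, with medians of 29518, 35339.5 and 33314 UMIs, against 9229, 8049 and 7452 UMIs in members with none.

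**Figure D1:**
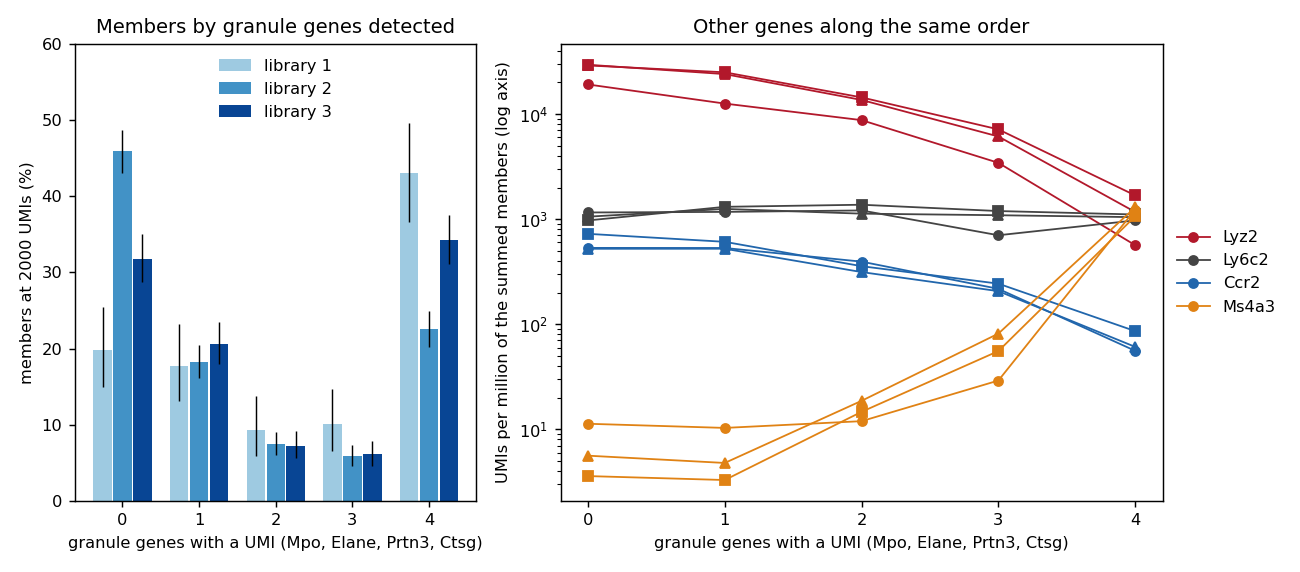
Left, the share of members (%, 2000 UMIs per cell) with 0 to 4 of the granule transcripts Mpo, Elane, Prtn3 and Ctsg in each library, with 95% exact binomial intervals as error bars; right, CPM of the summed members (log axis) of 4 other genes along the same order, with circles for library 1, squares for library 2 and triangles for library 3. Most members sat at 0 or at 4 granule transcripts, and Lyz2 and Ccr2 stood lower, and Ms4a3 higher, at 4 than at 0 in all 3 libraries.

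This order was drawn up after its values were seen, and the differences along it are given without a test. Ms4a3, a membrane protein of granulocyte-monocyte progenitors, stood at 1234, 1064 and 1294 CPM in members with 4 granule transcripts, against 11.3, 3.59 and 5.61 in members with none. Cd34, a progenitor surface protein, stood at 95.0, 56.7 and 60.9 with 4 granule transcripts, against 15.8, 6.10 and 5.61 with none. Calr, the chaperone calreticulin of the endoplasmic reticulum, stood at 1544, 1209 and 1495, against 264, 255 and 236. The groups did not overlap for any of the 3 genes. Here and below, genes said not to overlap were picked among many, and the share of all genes without overlap is not given.

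Transcription factors differed between these ends as well. Gfi1, a repressor needed for granulocyte formation, stood at 48.0, 42.0 and 50.9 CPM in members with 4 granule transcripts, against 4.51, 0.717 and 0.374 in members with none. Cebpe, which drives the late granule program of neutrophils, stood at 88.4, 112 and 113, against 18.1, 19.4 and 19.8. The ends did not overlap for either gene. Irf8, which steers progenitors toward monocytes, did not separate the ends, with 228, 317 and 331 in members with 4 granule transcripts and 503, 285 and 294 in those with none.

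Lyz2, Ifitm3 and Fn1 stood higher in members without granule transcripts. Lyz2 was at 566, 1684 and 1171 CPM in members with 4 granule transcripts, against 19150.2, 29062 and 29500 in members with none. Ifitm3, an interferon-induced membrane protein, was at 235, 309 and 308, against 3174, 3760.2 and 3967. Fn1, fibronectin, was at 193, 35.5 and 14.7, against 1171, 1198 and 961. The ends did not overlap for any of these genes.

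The genes of the rule did not all follow the same order. Ccr2 was at 55.9, 86.0 and 60.9 CPM in members with 4 granule transcripts, against 533, 725 and 523 in members with none, and Ms4a6c at 208, 388 and 302, against 973, 1138 and 1065. Ly6c2 overlapped between the ends, with 973, 1108 and 1045 in members with 4 granule transcripts and 1158, 973 and 1056 in members with none. Camp was lower with 4 granule transcripts in each library, at 131, 65.1 and 78.5, against 223, 119.8 and 118.

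The promoters of 4 genes that stood higher and 2 that stood lower in members with granule transcripts are shown as examples of genes that differ between its ends. Mpo, Elane and Prtn3 define the order and Ccr2 is a gene of the rule, so the choice of members sets or shapes their difference, which is a description. Each is the 250 bases before the gene's start from RefSeq, build GRCm38.p6, read 5′ to 3′ on the gene's strand. Capitals mark every match to GGAAGT, the core bound by the ETS factor PU.1, and to TTNNGNAA, the C/EBP site, on either strand; in Ms4a3 the 2 matches overlap and form 1 run of capitals.
Mpo (chr11:87793534-87793783, plus strand): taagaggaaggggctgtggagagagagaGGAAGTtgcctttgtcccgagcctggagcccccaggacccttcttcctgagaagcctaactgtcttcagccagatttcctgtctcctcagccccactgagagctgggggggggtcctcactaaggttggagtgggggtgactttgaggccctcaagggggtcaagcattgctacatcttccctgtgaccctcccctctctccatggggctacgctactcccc
Elane (chr10:79886062-79886311, plus strand): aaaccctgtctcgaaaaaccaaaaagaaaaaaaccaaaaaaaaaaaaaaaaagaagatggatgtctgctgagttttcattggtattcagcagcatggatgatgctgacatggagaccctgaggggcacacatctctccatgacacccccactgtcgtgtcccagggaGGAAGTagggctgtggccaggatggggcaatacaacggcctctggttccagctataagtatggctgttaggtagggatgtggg
Prtn3 (chr10:79879417-79879666, plus strand): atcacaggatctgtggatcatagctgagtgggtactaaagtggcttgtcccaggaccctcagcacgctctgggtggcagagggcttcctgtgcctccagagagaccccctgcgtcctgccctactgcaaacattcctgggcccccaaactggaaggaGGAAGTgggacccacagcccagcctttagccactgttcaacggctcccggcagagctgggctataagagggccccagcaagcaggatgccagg
Ms4a3 (chr19:11640852-11641101, minus strand): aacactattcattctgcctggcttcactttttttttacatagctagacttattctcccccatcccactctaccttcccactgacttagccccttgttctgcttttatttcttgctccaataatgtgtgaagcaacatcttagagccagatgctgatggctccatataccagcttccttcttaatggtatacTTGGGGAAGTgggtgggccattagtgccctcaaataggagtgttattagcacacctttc
Ccr2 (chr9:124101933-124102182, plus strand): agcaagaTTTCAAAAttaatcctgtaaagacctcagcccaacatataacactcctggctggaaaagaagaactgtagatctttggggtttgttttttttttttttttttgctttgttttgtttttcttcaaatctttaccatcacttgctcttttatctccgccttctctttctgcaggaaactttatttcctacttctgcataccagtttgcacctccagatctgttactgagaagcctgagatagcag
Lyz2 (chr10:117282273-117282522, minus strand): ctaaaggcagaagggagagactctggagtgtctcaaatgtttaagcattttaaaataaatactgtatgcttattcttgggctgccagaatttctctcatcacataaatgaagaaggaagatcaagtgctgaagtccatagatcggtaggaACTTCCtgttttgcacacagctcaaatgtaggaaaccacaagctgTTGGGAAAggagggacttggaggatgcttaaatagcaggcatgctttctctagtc

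GGAAGT was present in 5 of the 6 windows, all but Ccr2, and in 19.7% of 32851 promoter windows of the same length. It lies 222 to 217 bases before the start of Mpo, 83 to 78 before Elane, 93 to 88 before Prtn3, 55 to 50 before Ms4a3 and, on the other strand, 100 to 95 before Lyz2. TTNNGNAA was present in 3 of the 6, those of Ms4a3, Ccr2 and Lyz2, and in 36.8% of all windows. Prtn3 and Elane are neighbours on chromosome 10, with starts 6645 bases apart. These matches describe letters in the windows, and binding was not measured.

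The members were next compared with C1q macrophages, the cells with at least 2 of C1qa, C1qb and C1qc, a UMI of Csf1r and the same limits on S100 genes and Siglech, of which there were 23, 396 and 165. Within a library the UMIs of a class were added up, and the sums went into edgeR's quasi-likelihood test with the library as block and Benjamini-Hochberg adjustment, while genes of the rule were left out. Levels in this and the following comparisons are CPM scaled by edgeR's TMM factors, called scaled CPM. Because both classes were drawn from these same counts, a call describes how the classes so chosen differ in a gene outside the rule. Of 10826 genes, 1758 rose in monocytes (16.2%) and 2084 fell (19.2%), together 35.5%, and the median log2 fold change over all genes was 0.02. Of the 3842 calls, 3565 ran the same way in all 3 libraries. The number of calls became 1398 without library 2, 1890 without library 3 and 5089 without library 1.

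Resident macrophage genes were the list with the lowest median, and 18 of its 18 tested genes fell in monocytes, with a median log2 fold change of -6.42. Some of them, such as Cd5l, Spic and Folr2, had few UMIs in monocytes and passed the filter on low counts through macrophages alone, so that count and median are in part fixed by the filter and stand as a description. Cd5l, a secreted protein of splenic and marrow macrophages, had 0, 0.0936 and 0 scaled CPM in monocytes, against 71.2, 77.2 and 91.9 in macrophages. Spic, the factor of red pulp and marrow macrophages that handle iron, had 0, 0.281 and 0.287 in monocytes, against 119, 132 and 116 in macrophages, a log2 fold change of -8.88 ± 0.30 (SE). Folr2, a folate receptor of resident macrophages, had 0.208, 0 and 0.115 in monocytes, against 247, 47.7 and 21.5 in macrophages. The classes did not overlap for these genes, although Cd5l in monocytes rests on 2 UMIs. Maf, a factor of resident macrophages, fell to 7.71, 6.13 and 4.48 scaled CPM in monocytes, against 622, 350.5 and 248 in macrophages (log2 fold change -5.95 ± 0.19, adjusted p = 3.3e-06).

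Iron and heme handling fell throughout, with 10 of 10 genes lower and a median of -2.66. Slc40a1, the iron exporter ferroportin, had 4.58, 2.72 and 3.45 scaled CPM in monocytes, against 437, 255 and 216 in macrophages, a log2 fold change of -6.33 ± 0.20 (adjusted p = 3.3e-06). Erythroid markers moved with this contrast: the 4 of them summed to 105, 2829 and 5153 CPM in monocytes, against 17937, 55951 and 118932 in macrophages, and their part in the result was not tested. Lysosomal proteins had 12 of 15 genes lower and none higher, with a median of -1.37. Lgmn, the lysosomal protease legumain, fell to 15.2, 31.5 and 22.4 scaled CPM in monocytes, against 1054, 744 and 687 in macrophages, and the levels did not overlap. Ctsd, cathepsin D, fell by 3.47 on the log2 scale.

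Antigen presentation by MHC class II had 9 of 10 genes lower and 1, H2-DMb2, higher, with a median of -2.67. Cd74, the invariant chain, had 99.4, 613 and 247 scaled CPM in monocytes, against 1970.3, 7286 and 5887 in macrophages. H2-Eb1, a class II beta chain, had 23.3, 166 and 52.5 in monocytes, against 574, 2463 and 1967 in macrophages. Library 1 was the lowest in both classes for both genes. Chemokines divided: Ccl8 and Cxcl16 fell, at log2 fold changes of -10.49 ± 0.31 and -5.96 ± 0.22, and Ccl2, a ligand of Ccr2, rose at 0.78 ± 0.22 (adjusted p = 0.029). Ccl2 had 134, 82.9 and 45.1 scaled CPM in monocytes, against 133, 41.0 and 21.5 in macrophages, so the classes overlapped across libraries.

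Homing and adhesion had 7 of 16 genes higher and 4 lower, with a median of 0.52. Itgb7, an integrin beta chain, had 92.9, 146 and 133 scaled CPM in monocytes, against 4.75, 26.1 and 15.6 in macrophages, and Emb, the adhesion protein embigin, had 360.3, 511 and 464, against 28.5, 72.5 and 61.6. Neither overlapped. Fn1 rose to 419.5, 519.7 and 294 in monocytes, against 9.50, 113 and 96.3 in macrophages. Cx3cr1 fell to 34.0, 57.4 and 48.8 in monocytes, against 271, 214 and 203 in macrophages, a log2 fold change of -2.24 ± 0.22.

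Among transcription factors of the monocyte fate, 3 of 15 rose and 5 fell. Irf8 had 362, 372 and 369 scaled CPM in monocytes, against 166, 194 and 177 in macrophages, and Klf4, a factor needed for monocyte formation, had 186, 222 and 171, against 147, 136 and 93.4 (log2 fold changes 1.03 ± 0.15 and 0.68 ± 0.16, adjusted p = 0.0019 and 0.015). Klf4 fell short of the threshold without library 2 and without library 3, at log2 fold changes of 0.63 and 0.51. Tcf7l2, an effector of Wnt signalling, fell to 4.79, 4.26 and 4.48 in monocytes, against 104, 66.6 and 57.2 in macrophages. The interferon response had 3 of 17 genes higher and 10 lower. Rsad2, the antiviral protein viperin, fell at -3.75 ± 0.34, and Ifitm6, an interferon-induced membrane protein of myeloid cells, rose at 1.99 ± 0.20.

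Glycolysis had 11 of 15 genes higher and none lower, with a median of 0.78. Pgam1, phosphoglycerate mutase, had 626, 699 and 854 scaled CPM in monocytes, against 195, 138 and 209.7 in macrophages, a log2 fold change of 2.05 ± 0.19. Outside the lists, Ass1, argininosuccinate synthase of arginine synthesis, had 146, 223 and 244 in monocytes, against 9.50, 20.2 and 14.2 in macrophages, and Slpi, a secreted inhibitor of leukocyte proteases, had 277, 293 and 296, against 28.5, 33.4 and 29.8. Both were apart in all 3 libraries.

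Granulocyte-monocyte progenitor genes had 14 of 15 higher and none lower, with a median of 2.48. Ms4a3 had 819.8, 517 and 774 scaled CPM in monocytes, against 247, 26.3 and 68.0 in macrophages, and Cd34 had 93.3, 40.4 and 49.1, against 0, 4.91 and 6.36. Ctsg had 3530.3, 2733 and 3389 in monocytes, against 821, 83.1 and 222 in macrophages, where the 23 cells of library 1 were the highest. The contrast was repeated using only members with none of the 4 granule transcripts, a setting added after the data were seen, in which 1075 genes rose and 1148 fell of 9927. Macrophages were not restricted in this way and kept their granule UMIs, so lower progenitor genes there follow in part from the choice of members. There 1 of 11 progenitor genes rose and 5 fell, Ms4a3 turned to -3.46 (adjusted p = 2.3e-04), and Cd34 stood at 0.39 (adjusted p = 0.65). Resident macrophage genes were still lower in 18 of 18, with a median of -5.39, and iron handling genes in 10 of 10. MHC class II genes were lower in 5 of 10 and higher in none, with a median of -0.91, and lysosomal proteins were lower in 7 of 15 and higher in 1, with a median of -0.63. Interferon genes turned the other way in that setting, with 6 of 17 higher and 2 lower, and homing genes counted 12 of 17 higher and 2 lower. Immediate early genes, which respond to handling as well as to signals, were higher in 11 of 14 there, against 3 of 14 with all members.

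**Figure D2:**
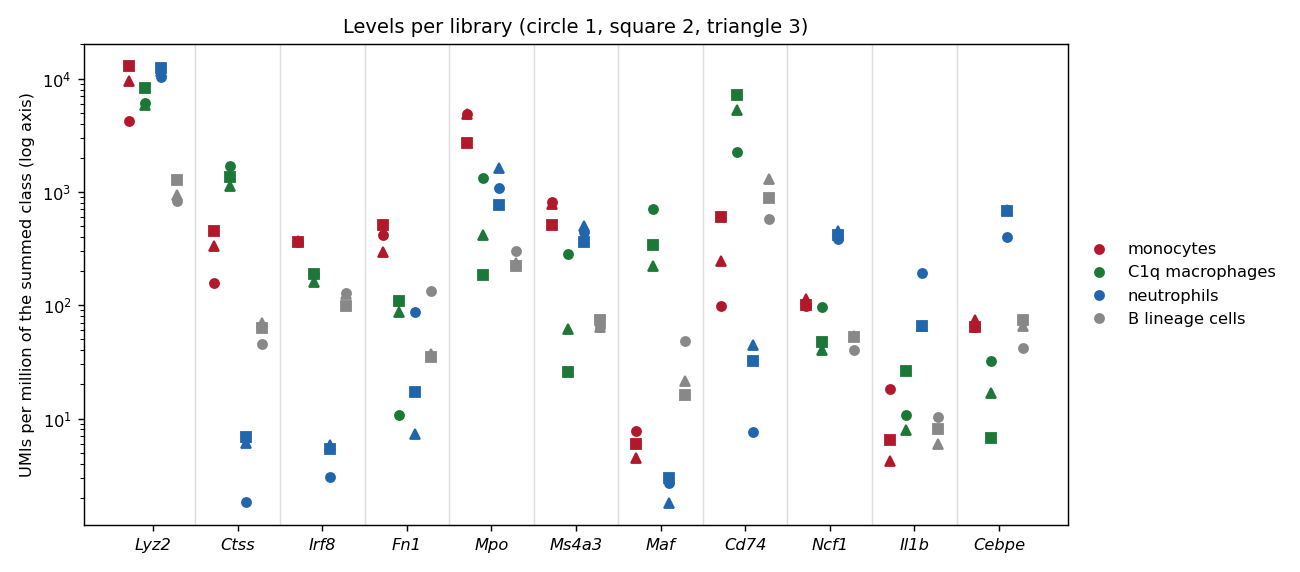
CPM of the summed cells of each class (log axis) for 11 genes, with 1 point per library (circle 1, square 2, triangle 3) for monocytes, C1q macrophages, neutrophils and B lineage cells from left to right. Irf8 in monocytes lay between 361 and 370 and above all 3 other classes, while Mpo and Ms4a3 were highest in monocytes and Maf and Cd74 in macrophages.

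Neutrophils, 1735, 2681 and 2748 cells with S100a8 plus S100a9 at 2% or more, at least 3 further neutrophil transcripts and at most 1 of the 5 monocyte markers, gave more calls. Genes of the rule and of the neutrophil definition were left out of the counts. Of 12477 genes, 3870 rose in monocytes (31.0%) and 3849 fell (30.8%), together 61.9%, with a median log2 fold change of -0.00 over all genes. The neutrophil sums are dominated by a few transcripts, and without TMM scaling, an alternative added after the data were seen, the median log2 fold change stood at 0.80 and 7898 genes counted higher against 1483 lower. The genes named here kept their direction on both scales.

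Among monocyte fate factors, Irf8 had 261, 286 and 282 scaled CPM in monocytes, against 3.97, 7.36 and 7.49 in neutrophils, a log2 fold change of 5.48 ± 0.19 (adjusted p = 6.8e-05). Irf5, a factor of inflammatory myeloid cells, had 29.6, 73.8 and 56.5, against 2.38, 3.81 and 2.32, and Pou2f2, an octamer-binding factor, had 23.8, 49.0 and 42.5, against 1.53, 4.89 and 3.04. The factor list as a whole had 7 of 16 genes higher and 4 lower, or 10 and 3 without TMM scaling. Klf2, which restrains myeloid activation, was among those that fell, at 285, 240.03 and 184 in monocytes, against 749.6, 769.6 and 682 in neutrophils. Spi1, which encodes PU.1, fell at -1.05 ± 0.08, and at -0.24 without TMM scaling.

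The Ms4a family of tetraspan proteins had 7 of 10 genes higher and 1, Ms4a1, lower, with a median of 5.11. Ms4a4c had 56.6, 142 and 93.9 scaled CPM in monocytes, against 0.428, 0.683 and 0.479 in neutrophils, a log2 fold change of 7.53 ± 0.15 (adjusted p = 2.3e-05). Fcgr1 had 14.7, 31.6 and 28.9, against 0.367, 0.898 and 0.855, and Trem2, a lipid-sensing receptor of mononuclear phagocytes, had 12.8, 36.5 and 23.7, against 0.183, 0.539 and 0.410. Cx3cr1 had 24.5, 44.1 and 37.3 in monocytes, against 0.550, 1.37 and 3.38 in neutrophils. No monocyte value of these 4 genes overlapped with a neutrophil value. Trem2 had few UMIs in neutrophils and passed the filter on low counts through monocytes, so its direction is in part fixed by the filter. Ccl2 and S100a4, a calcium-binding protein of motile cells, rose at 6.12 ± 0.18 and 5.70 ± 0.73.

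Antigen presentation by MHC class II had 9 of 11 genes higher and 1, Cd80, lower, with a median of 2.66, and dendritic cell genes 7 of 10 higher and 1, Mgl2, lower, with a median of 2.46. Without TMM scaling no gene of either list was called lower, with 9 of 11 and 8 of 10 higher. Some dendritic cell genes, such as Flt3 and Cd209a, had few UMIs in neutrophils and passed the filter on low counts through monocytes. The count and median of that list are thus in part fixed by the filter and stand as a description. H2-Aa, a class II alpha chain, had 18.1, 138 and 42.7 scaled CPM in monocytes, against 1.16, 8.30 and 4.41 in neutrophils. Flt3, the receptor of dendritic cell and progenitor growth, had 12.04, 10.0 and 6.14, against 0.0611, 0.323 and 0.103. Cd209a, a lectin of monocyte-derived dendritic cells, had 5.72, 23.9 and 10.2, against 0.122, 0.216 and 0.239. No value of these 3 genes overlapped between the classes. Ctss rose to 114, 356 and 254 in monocytes, against 2.38, 9.34 and 7.86 in neutrophils, and Ctsc, the protease that activates granule serine proteases, rose at 3.77 ± 0.45. Among lysosomal proteins as a whole, 7 of 15 rose and 4 fell, or 9 and 1 without TMM scaling.

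The oxidative machinery of neutrophils fell as a whole. All 7 NADPH oxidase genes tested were lower in monocytes, with a median of -2.17, or -1.36 without TMM scaling. Ncf1, the p47 subunit, had 71.0, 78.9 and 86.7 scaled CPM in monocytes, against 501, 571 and 584 in neutrophils, and Cybb, the catalytic subunit, had 148, 324 and 182, against 1439, 1345 and 991. Neither overlapped. Neutrophil granule and surface genes outside the rule fell in 6 of 6. Cebpe fell to 46.1, 50.6 and 57.0 in monocytes, against 525, 938 and 898 in neutrophils, Itgam, the integrin alpha chain CD11b, to 25.1, 43.2 and 29.3, against 432, 369 and 309, and Il1b, interleukin 1 beta, to 13.2, 5.11 and 3.25, against 252, 90.2 and 84.9. Slc2a3, a glucose transporter, fell at -6.14 ± 0.11, and Chil1, a chitinase-like protein, at -9.12 ± 0.17. The glycolysis list had 2 of 16 genes higher and 11 lower, with a median of -0.54, but 7 higher and 4 lower, with a median of 0.26, without TMM scaling, so it has no direction here.

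The counts for DNA replication genes turned with the granule-bearing cells and with the scaling. With all members, 6 of 16 rose over neutrophils and 2 fell, with a median of 0.12, or 14 and none with a median of 0.93 without TMM scaling. Using only members without granule transcripts, where 2258 genes rose and 2595 fell of 11815, none of 16 rose and 13 fell, with a median of -0.70. Tmem173, which encodes the DNA sensor adaptor STING, rose at 3.40 ± 0.12 with all members and at 3.68 without granule-bearing ones.

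**Figure D3:**
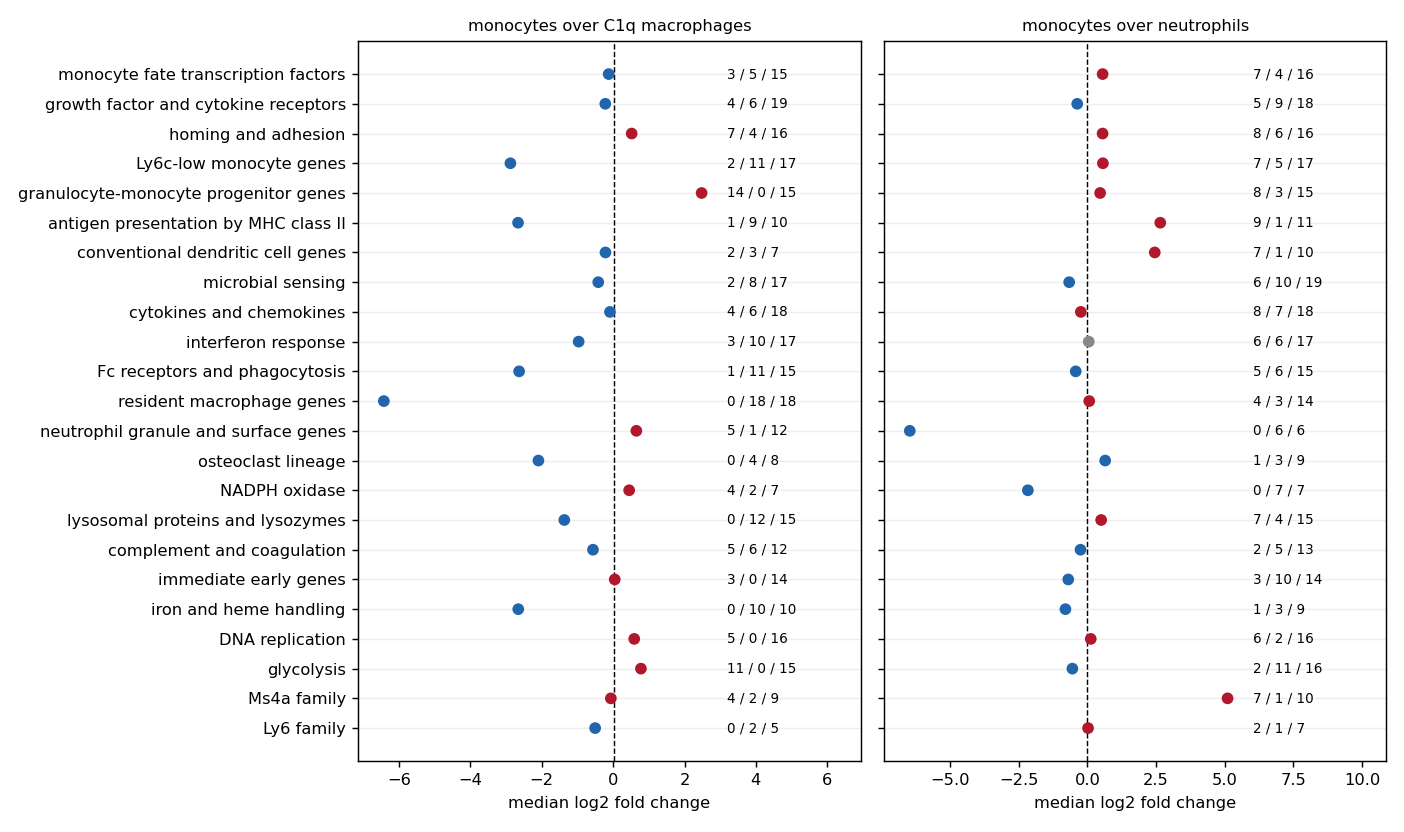
Median log2 fold change of the tested genes of 23 lists, for monocytes over C1q macrophages (left) and monocytes over neutrophils (right), with the numbers of genes called higher, called lower and tested at the right of each panel; red lists have more genes higher, blue lists more lower, grey as many of each, and the dashed line is the median of all genes. Resident macrophage genes, at -6.42, are the lowest list in the left panel, and the Ms4a family, at 5.11, is the highest in the right panel.

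Dividing cells were then set apart within the members. At 2000 UMIs per cell, at least 3 of 15 division genes were found in 40.1%, 38.3% and 45.5% of members in libraries 1, 2 and 3, or 41.3 ± 3.77% (SD, n = 3 libraries). With all UMIs the shares were 76.4%, 58.4% and 69.5%. Neutrophils of the same libraries gave 23.4%, 33.0% and 34.0% at 2000 UMIs, C1q macrophages 13.04%, 28.0% and 25.5%, and B lineage cells 40.6%, 39.5% and 40.4%. The share in members was above that of neutrophils and macrophages in each library and close to that of B lineage cells. In libraries 2 and 3 it stood at 55.6% and 59.6% of members with 2 to 4 granule transcripts, against 23.8% and 30.1% of those with none. Library 1 went the other way, with 39.9% against 44.7%, and its intervals overlap.

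**Figure D4:**
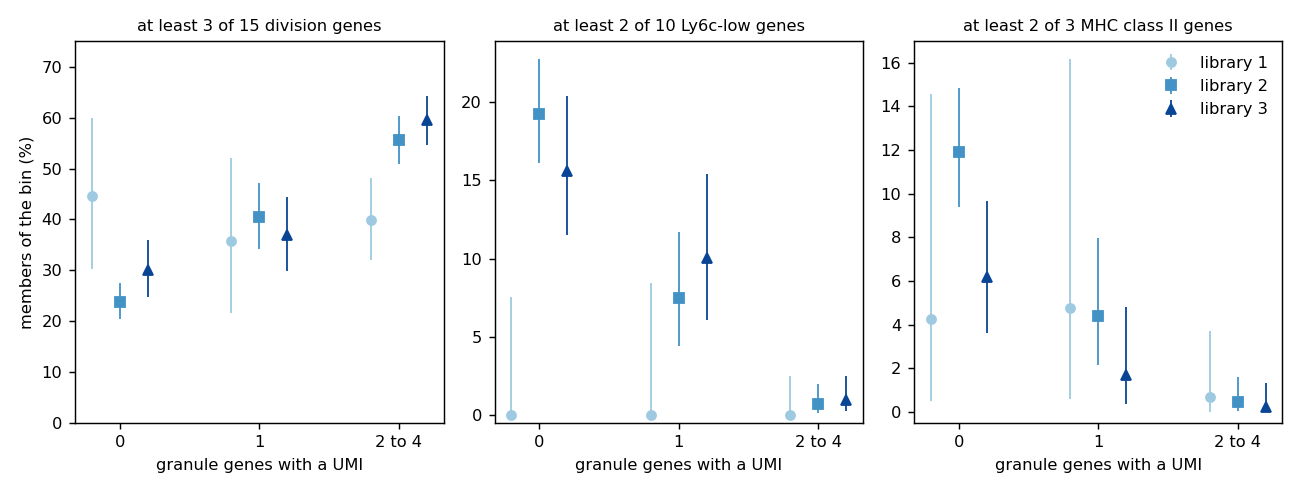
Share of members (%) with at least 3 of 15 division genes (left), at least 2 of 10 Ly6c-low genes (middle) and at least 2 of 3 MHC class II genes (right), by the number of granule transcripts found and by library, with 95% exact binomial intervals. In libraries 2 and 3 the Ly6c-low share was 19.3% and 15.6% with no granule transcript, and in library 1 no member had 2 Ly6c-low genes.

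Members with division genes, 95, 476 and 395 cells with medians of 21420, 19537 and 21854 UMIs, were compared with members in which none of the 15 was found, 61, 485 and 250 cells with medians of 9700, 7576 and 6628 UMIs. Of 9993 genes, 732 rose (7.33%) and 1077 fell (10.8%), together 18.1%, with a median log2 fold change of -0.01. Mitotic genes outside the 15 rose, among them Plk1, a mitotic kinase, with 67.6, 96.3 and 91.7 scaled CPM in dividing members, against 9.61, 3.50 and 2.66 in the others. Cdc20, the activator of the anaphase-promoting complex, had 159, 167 and 179, against 17.1, 13.3 and 14.6, and Aurka, the kinase of spindle poles, had 66.4, 96.8 and 96.7, against 4.27, 7.70 and 11.1. None of them overlapped. Of 16 DNA replication genes, 3 rose and none fell, with a median of 0.42. Rrm2, a subunit of ribonucleotide reductase, rose to 106, 182 and 179.5 in dividing members, against 63.0, 40.1 and 47.4 in the others, and Tyms, thymidylate synthase, rose at 1.63 ± 0.28 (adjusted p = 0.012).

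The interferon response fell in dividing members, with 15 of 17 genes lower, none higher and a median of -2.00. Some of these genes, such as Ifit3, had few UMIs in dividing members and passed the filter on low counts through the others. That count and median are thus in part fixed by the filter and stand as a description. Ifit3, an interferon-induced protein, had 0.417, 0.351 and 0.762 scaled CPM in dividing members, against 14.96, 29.4 and 30.1 in the others, a log2 fold change of -5.66 ± 0.31 (adjusted p = 5.3e-04). Oasl2, of the oligoadenylate synthetase family, had 6.26, 4.47 and 5.52, against 21.4, 44.3 and 58.9. Ifit1 fell at -4.18 ± 0.42. All 3 were lower in each of the 3 libraries. Immediate early genes fell in 14 of 14, with a median of -0.88, and Junb, an AP-1 subunit, had 387, 292 and 295 in dividing members, against 751, 1092 and 912 in the others.

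Microbial sensing had 11 of 17 genes lower and none higher. Tlr7, the receptor for single-stranded RNA, had 0.835, 2.46 and 1.43 scaled CPM in dividing members, against 7.48, 23.6 and 15.5 in the others. It passed the filter on low counts through the others, so the count for microbial sensing is also in part fixed by the filter. Factors of the monocyte fate had 9 of 16 lower and none higher. Apoe, the lipid carrier apolipoprotein E, had 50.5, 128 and 59.7, against 313, 2561 and 1355, and Pla2g7, a secreted phospholipase, had 0.417, 7.81 and 6.10, against 12.8, 158 and 135. The groups did not overlap for Tlr7, Apoe or Pla2g7. Ctss and Slc11a1, a metal transporter of phagosomes, fell at -2.09 ± 0.19 and -2.59 ± 0.19. Lyz2 fell at -1.55 ± 0.24 (adjusted p = 0.0085), with levels that overlapped between libraries. Progenitor genes had 9 of 15 higher and 1, Flt3, lower, and Ms4a3 had 907, 570.4 and 835, against 543, 166 and 339.

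The granule transcripts moved with this contrast, so it was repeated within each end of that order, which were settings added after the data were seen. Using only members without granule transcripts, of which libraries 2 and 3 held enough, 1420 genes rose and 1236 fell of 8749. There DNA replication genes were higher in 15 of 15, with a median of 2.26, the interferon genes were still lower in 15 of 17 and the immediate early genes in 14 of 14. Using only members with at least 2 granule transcripts, 189 genes rose and 111 fell of 8057. There 1 of 11 interferon genes fell, 2 of 16 replication genes rose and 9 fell, and 2 of 14 immediate early genes fell. No gene of 12 for microbial sensing, of 12 monocyte fate factors or of 11 progenitor genes was called in either direction, and Lyz2 stood at 0.22 (adjusted p = 0.35). Rrm1, the other subunit of ribonucleotide reductase, rose at 1.40 ± 0.31 with all members, at 4.23 without granule transcripts, and stood at 0.39 (adjusted p = 0.079) with them. Cdc20 rose at 6.22 without granule transcripts and at 2.10 with them. The count of changed genes was 4690 without library 1, 929 without library 2 and 720 without library 3, and 433 without the library block.

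Genes of Ly6c-low monocytes marked a smaller set, called Ly6c-low members below after the genes found. Ly6c2, a gene of the rule, had a UMI in 78.5, 76.1 and 77.1% of all members at 2000 UMIs. The level of Ly6c2 in the smaller set is not given, so the name does not state that it was low. At least 2 of Ace, Treml4, Cd300e, Eno3, Adgre4, Fabp4, Ear2, Gngt2, Pparg and Apoc2 were found at 2000 UMIs in 0, 130 and 65 members of libraries 1, 2 and 3, which is 0%, 10.5% and 7.49%, against 0.131%, 0.437% and 0.182% of B lineage cells. The count of 0 among 237 members of library 1 allows a share of up to 1.27%, taken as 3 counts of 237. Apoc2 itself had 0, 78.8 and 39.1 CPM in members of libraries 1, 2 and 3, and it was also at 0 in the macrophages of library 1. With the 9 other genes, a setting added after the data were seen, 0, 63 and 41 members had at least 2. Library 1 was processed with another software version and gene list, whose part in its count of 0 was not tested. In libraries 2 and 3 the members with at least 2 of the 10 genes made up 19.3% and 15.6% of members with no granule transcript, against 0.673% and 0.969% of those with 2 to 4. These members had medians of 6949 and 5807 UMIs, and the members with none of the 10 genes, 802 and 658 cells, had 16908 and 19823 UMIs.

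The comparison of these groups rests on libraries 2 and 3, and so on n = 2. With 1 residual degree of freedom per gene, its p-values take most of their estimate of spread from the other genes. Of 11178 genes, 2056 rose (18.4%) and 2442 fell (21.8%), together 40.2%, with a median of -0.07. Of the 8 genes on the Ly6c-low list that the split did not use, 7 rose and none fell. Genes such as Cd36 and S1pr5 were low in the other members and passed the filter on low counts through the Ly6c-low members. The list counts of this comparison are thus in part fixed by the filter and stand as a description. Cd36, a scavenger receptor, had 30.0 and 17.4 scaled CPM in Ly6c-low members of libraries 2 and 3, against 0.828 and 0.465 in the others. Nr4a1, the nuclear receptor on which Ly6c-low monocytes depend, had 117 and 109, against 22.0 and 10.4. S1pr5, a sphingosine phosphate receptor of egress from marrow, had 24.2 and 28.3, against 0.473 and 0.864. Fcgr4, an activating IgG receptor, had 62.8 and 37.1, against 3.96 and 2.33. None of the 4 overlapped, but they were picked among called genes and each group has n = 2, so this stands as a description.

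Immune sensing and effector lists rose together. Microbial sensing had 16 of 18 genes higher, the interferon response 16 of 17, Fc receptors and phagocytosis 12 of 14, and immediate early genes 14 of 14, with none lower in any of them. Apoe had 3639.6 and 3572 scaled CPM in Ly6c-low members, against 271 and 73.1 in the others. Ctss had 1490.2 and 1699, against 302 and 233. The groups were apart in both libraries. Hmox1, heme oxygenase, had 107 and 139.6, against 22.4 and 17.4, and Il1b had 44.5 and 45.8, against 3.61 and 1.99. Markers of other cells moved with this contrast: the 7 B lineage markers summed to 395 to 410.1 CPM in Ly6c-low members, against 139 to 231 in the others, and the 4 erythroid markers to 12251 to 16552, against 2563 to 4115. The 10 C1q macrophage markers summed to 123 and 101 CPM in Ly6c-low members of libraries 2 and 3, against 24.5 and 22.3 in the others, with Cd163 at 0 in Ly6c-low members. Osteoclast markers summed to 640 and 31.6 CPM in Ly6c-low members of libraries 2 and 3, against 114 and 41.3 in the others. Chondrocyte markers summed to 1477 and 9.02, against 492 and 9.84, so both lists stood higher in library 2 only. Their part in the result was not tested.

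DNA replication genes fell in 16 of 16, with a median of -2.06, and Dut, which keeps uracil out of DNA, had 36.7 and 65.4 scaled CPM in Ly6c-low members, against 386 and 414 in the others. Progenitor genes fell in 13 of 15 with 1, Igsf6, higher, and Ms4a3 had 7.73 and 4.36, against 630.5 and 866. Irf8 fell by little, to 226 and 239.9 in Ly6c-low members, against 391 and 379.5 in the others (log2 fold change -0.73 ± 0.15, adjusted p = 5.2e-06).

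Within members without granule transcripts the count of calls was lower. There 561 genes rose and 619 fell of 8229, the interferon genes were higher in 11 of 17, microbial sensing in 9 of 17 and Fc receptors in 11 of 14, and replication genes were lower in 14 of 15. Apoe stood at 2.75 on the log2 scale there, against 4.66 with all members, and Fcgr4 at 3.36, against 3.98. Cd74 rose at 2.05 ± 0.15 with all members and stood at 0.01 without granule transcripts (adjusted p = 0.97). MHC class II genes were higher in 8 of 11 with all members and lower in 1 of 8, with none higher, without granule transcripts.

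A still smaller set carried MHC class II transcripts. At least 2 of H2-Aa, H2-Ab1 and H2-Eb1 were found at 2000 UMIs in 5, 80 and 21 members, which is 2.11%, 6.43% and 2.42%. In libraries 2 and 3 they made up 11.9% and 6.16% of members with no granule transcript, against 0.448% and 0.242% of those with 2 to 4. B lineage cells express these genes themselves and give no level of free RNA for them. The 80 and 21 cells of libraries 2 and 3 were compared with the 1113 and 828 members with none of the 3 genes, again with n = 2. Of 11326 genes, 867 rose (7.65%) and 1135 fell (10.0%), together 17.7%, with a median of -0.08.

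The other genes of antigen presentation rose in 6 of 8 with none lower. Cd74 had 17696 and 14437 scaled CPM in class II members of libraries 2 and 3, against 27.2 and 32.0 in the others. Ciita, the master regulator of class II transcription, had 141 and 81.6, against 0.100 and 0.415. Dendritic cell genes rose in 7 of 9 with none lower, and a median of 3.38. Genes such as Ciita and Itgax were low in the other members and passed the filter on low counts through the class II members. The counts of both lists are thus in part fixed by the filter and stand as a description. Cd209a had 629 and 302, against 7.83 and 8.96, Itgax, the integrin chain CD11c, had 36.4 and 32.6, against 0.552 and 1.19, and Batf3, a factor of cross-presenting dendritic cells, had 103 and 85.7, against 4.72 and 2.73. Flt3 had 61.1 and 49.0, against 10.7 and 7.35, and no value of these genes overlapped between the groups. The 8 dendritic cell markers summed to 533 to 939 CPM in class II members, against 32.9 to 36.9 in the others. The 7 B lineage markers, all with UMIs, summed to 393 to 489 in class II members, against 165 to 213 in the others. The 10 C1q macrophage markers summed to 140 and 116 in class II members of libraries 2 and 3, against 33.1 and 25.5 in the others, with Cd5l at 0 in class II members. Erythroid markers summed to 415 and 49828 in class II members of libraries 2 and 3, and osteoclast markers to 41.4 and 1451, so the 21 cells of library 3 stood apart. Their part in the result was not tested.

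Interferon genes rose in 15 of 17 with none lower, and Isg15, a ubiquitin-like interferon product, had 198 and 155 scaled CPM in class II members, against 30.9 and 33.2 in the others. Cxcl16, a membrane-bound chemokine, had 68.4 and 118, against 0.953 and 0.297, and Mrc1, the mannose receptor, had 45.1 and 16.3, against 1.45 and 1.30. Ly6a, which encodes Sca-1, had 80.1 and 81.6, against 3.41 and 8.60. Fn1 fell, with 198 and 102 in class II members, against 533 and 298 in the others. DNA replication genes fell in 16 of 16, with a median of -1.60, and progenitor genes in 11 of 15 with 1, Flt3, higher. Elane had 13.1 and 16.3 scaled CPM, against 3055 and 5283, but it stood at 0.062 on the log2 scale when the split used all UMIs (adjusted p = 0.71), and Ms4a3 at 0.26 (adjusted p = 0.061), against -8.05 and -7.08 with the split at 2000 UMIs.

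**Figure D5:**
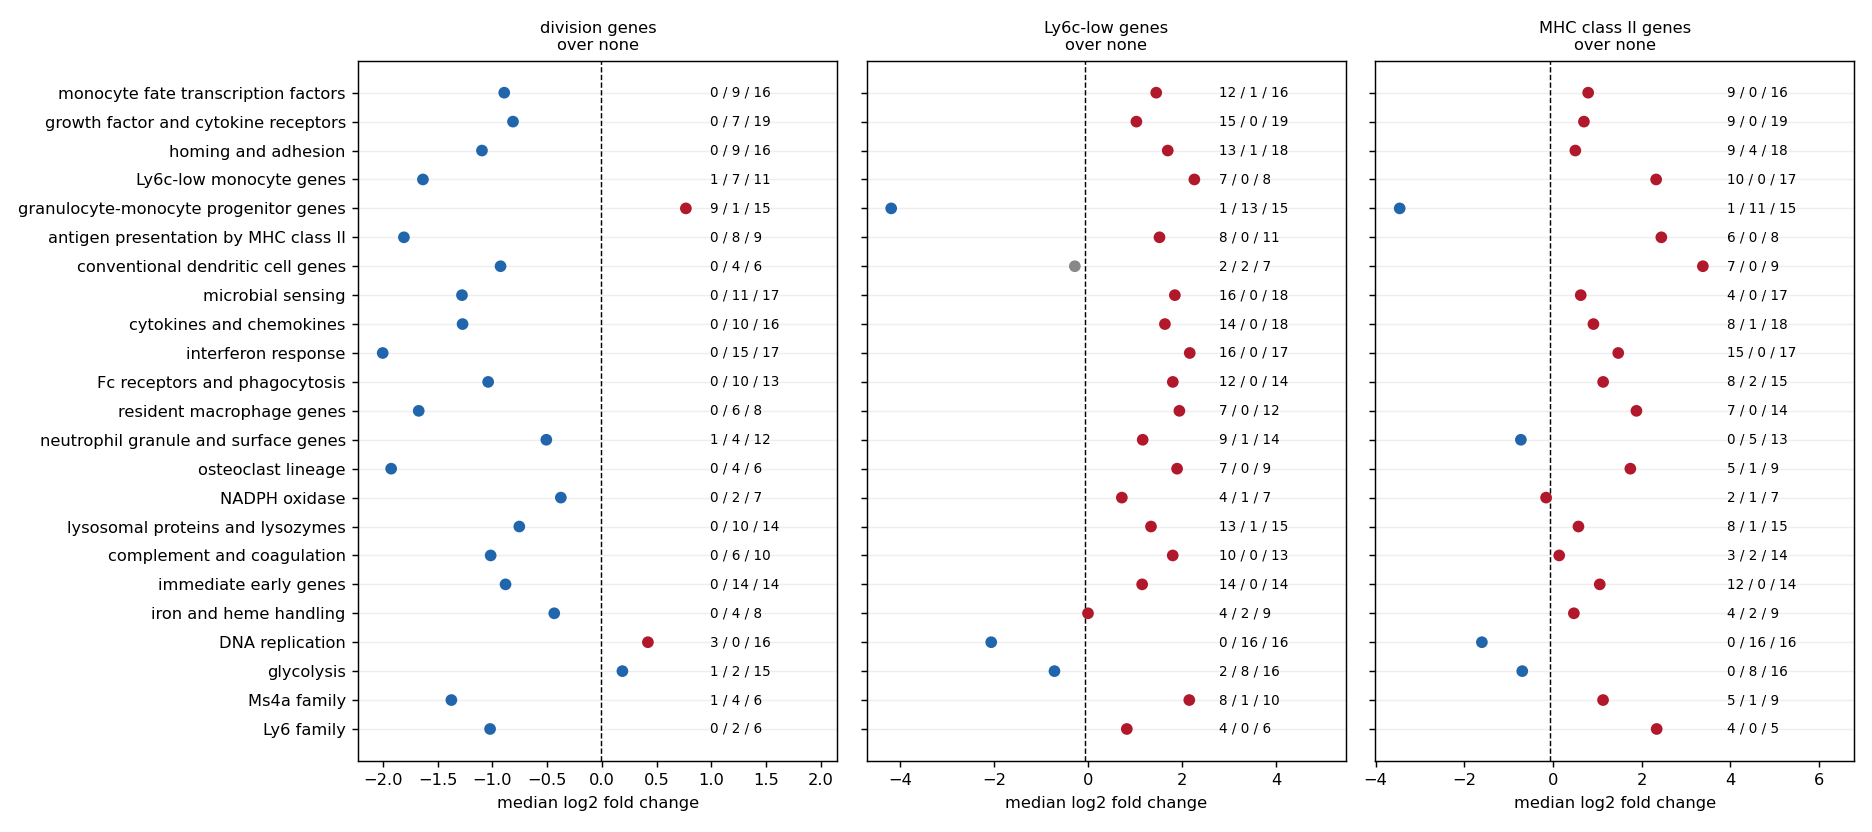
Median log2 fold change of the tested genes of 23 lists for members with division genes, with Ly6c-low genes and with MHC class II genes, each over members with none of them, with the numbers called higher, called lower and tested at the right of each panel; red lists have more genes higher, blue lists more lower, grey as many of each, and the dashed line is the median of all genes. Interferon genes, at -2.00, are the lowest list in the first panel and stand at 2.16 and 1.47 in the others.

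The variance over the mean at 2000 UMIs per cell, which a Poisson draw sets at 1, gave the spread of genes among members without any split. Of 2054 genes with a mean of at least 0.1 UMI in every library, 62 had a ratio of at least 2 in all 3, and the median of the lowest ratios was 0.999. Lyz2 had ratios of 43.9, 35.7 and 47.1, Elane 17.4, 16.4 and 21.2, Mpo 11.4, 11.2 and 13.4, Cd74 29.4, 52.0 and 54.1, and Apoe 10.1, 19.0 and 18.7. These are genes of the orders and sets described above. Chil3, a chitinase-like protein of classical monocytes, had 8.20, 11.5 and 12, and Cxcl2, a neutrophil-attracting chemokine, 16.1, 8.26 and 8.48.

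The highest ratio belonged to a bone transcript, Col1a1, the alpha 1 chain of collagen I, with 53.8, 174 and 164, followed by Col1a2, and Spp1 and Sparc stood nearby. This rests on few cells. Members with at least 20 of 2000 UMIs in Col1a1, Col1a2, Sparc and Spp1 together numbered 8, 16 and 12, or 3.38%, 1.29% and 1.38%, and they held 85.6%, 90.3% and 89.1% of these UMIs. The doublet caller marked 6, 14 and 10 of them. None of these UMIs was found in 73.4%, 76.7% and 64.5% of members.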

How the data were processed

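Single-cell libraries came from 3 pools of litter-matched mice, which form 1 group. The deposited files hold whole-number UMI counts per gene and barcode, not normalized; the submitters' processing notes name Cell Ranger 3.0.2 and Seurat 4, while the file headers give software 3.0.1 for library 1 and 6.0.0 for libraries 2 and 3. The genome build is not given in the sources used here. The libraries hold 64695292, 145925353 and 137188648 UMIs on 7430, 11767 and 11032 barcodes, and the members 4807615, 21829776 and 17391435 UMIs.

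Barcodes were kept as stated in the report, and the 30406 genes shared by all feature lists were used. Doublets were marked with Scrublet in scanpy 1.11.5 at a rate of 0.8% per 1000 barcodes and left in. Counts were summed per library and class, where a sum needed at least 20 cells, and tested with edgeR's quasi-likelihood test (edgeR 4.0.16, R 4.3.3, filterByExpr, TMM scaling, library as block, Benjamini-Hochberg adjusted p under 0.05). The library pairs the sums because both classes come from the same pool and library. Each fit was tested on simulated counts: of 100 genes changed 2-fold, 93 were recovered against macrophages, 88 against neutrophils, 91 for division, 55 for Ly6c-low and 49 for MHC class II genes. The simulation gave all genes the same dispersion and both classes of a library the same library effect. Only genes above a minimum expected count were changed, so the recovery holds for that setting and not for the real sums. A gene low in 1 class could pass filterByExpr through the other class alone. Where a list holds such genes, its count and median are in part fixed by the filter. Splits used 2000 UMIs drawn per cell. The p-values measure the spread between these pools only.

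The members, gene lists and splits were chosen with earlier results of these data known. Genes named with a test were taken from the 12 largest and 12 smallest called changes that ran the same way in every library at a mean of at least 50 scaled CPM in the higher class, from the 3 largest and 3 smallest called changes of each list, and from the 20 most abundant genes; a list member with no call may be named with its values. Many genes said not to overlap were picked for their large changes, so the lack of overlap follows in part from that choice. The share of all genes without overlap is not given. Clec7a, Mx1 and Aldoa were not used. Alternatives covered normalization, filters, DESeq2 1.42.0, doublets, marker limits, the block and each library left out.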

Additional observations from a re-analysis of the deposited data

How the results depend on the processing

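The share of members among kept barcodes, 8.12%, stood between 6.78% and 9.74% under the 5 other cell rules and between 6.37% and 10.0% with 1 library left out. Counts of changed genes that moved by more than 1.5 times were as follows. Using only members without granule transcripts, an alternative added after the data were seen, the count was 2223 against macrophages, with 3842 as reported, 4853 against neutrophils, with 7719, and 1180 for Ly6c-low genes, with 4498. For division genes, with 1809 as reported, it was 300 using members with at least 2 granule transcripts, also added later, and 5129 when the split used all UMIs. For Ly6c-low genes it was 2301 with 1 more list gene required and 2244 with DESeq2. For MHC class II genes, with 2002 as reported, it was 769 with DESeq2 and 1045 when the split used all UMIs. Under that last split 285 of the 867 higher calls and 163 of the 1135 lower calls were kept. In addition, 26 of the higher calls were called lower there and 23 of the lower calls higher. With 1 library left out, counts ranged over 1398 to 5089 against macrophages and 720 to 4690 for division genes. Those against neutrophils, 5301 to 8293, stayed within 1.5 times of the count reported. The cause of these changes was not tested.

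The block pairs sums of the same pool and library. With no replicate block, calls numbered 2723 against macrophages, 5208 against neutrophils, 433 for division genes, 3654 for Ly6c-low genes and 1097 for MHC class II genes. Against macrophages, Klf4, Ccl2 and Ms4a4c fell short without it. For division genes, Rrm1, Ms4a3, Ctsg, Nkg7, Lyz2, Ctss, Cd74 and Atf3 did.

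Signs turned for 4 named values: Ms4a3 against macrophages, -3.46 without granule transcripts; Lyz2 with division genes, 0.22 among members with at least 2 granule transcripts; and, for MHC class II genes split on all UMIs, Elane at 0.062 and Ms4a3 at 0.26. No test could be run for Ly6c-low or MHC class II genes without library 2 or 3, nor for MHC class II genes with 1 more list gene, 4 of 5 markers, doublets removed or no granule transcripts, because fewer than 2 libraries held 20 cells in both groups. Library 1 held 23 C1q macrophages and 246 members.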
